A study of Mus musculus with 8 samples.

Results

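The 7 genes described here encode proteins that make, sense, export or break down cholesterol: Hmgcs1, Sqle, Fdft1 and Lss for synthesis, Srebf2 for its control, Abca1 for efflux and Cyp46a1 for turnover. They were chosen by name, with earlier results of these data known, from 22430 genes in a table of raw counts. Each was found through its Ensembl identifier and GENCODE symbol, and all 7 were among the 16730 genes that passed the low-count filter. RNA was taken from the brain (a hemisphere) of each of 8 male C57Bl/6JRj mice, 4 aged 6 months (6m) and 4 aged 24 months (24m), with no treatment or engineered allele in either group. Polyadenylated RNA was sequenced, so each value is a level in bulk tissue, in which fewer cells of a type and less RNA per cell cannot be told apart. The comparison asked how the abundance of these transcripts differs between the ages.

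Cholesterol hardly crosses the blood-brain barrier, so the brain makes its own, in adults mostly in astrocytes and in oligodendrocytes, which build it into myelin. The pathway runs from acetyl-CoA through mevalonate to squalene and then through lanosterol to cholesterol. When sterols in the endoplasmic reticulum are low, Scap carries the precursor of SREBP2, the product of Srebf2, to the Golgi, where it is cut, and the freed fragment switches on genes of sterol synthesis and uptake. When sterols are plentiful, oxysterols activate liver X receptors, which raise the exporters Abca1 and Abcg1. Neurons dispose of surplus cholesterol by converting it with Cyp46a1 to 24-hydroxycholesterol, which can leave the brain.

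Library totals were 63460940 to 103462414 counts. On the second principal component of the 500 most variable genes, 24m replicate 1 lay apart, at 22.3 against -10.7 to 1.40 for the other 24m libraries, so the fold changes of the 7 genes are also given without it. Over all genes, 25.3% were called higher and 18.3% lower at 24m (43.6% in either direction), and in 55.2% the libraries of the 2 ages did not overlap. A call is an adjusted p of at most 0.05 in the quasi-likelihood test of edgeR, Benjamini-Hochberg adjusted over all tested genes, with a log2 fold change (log2FC) of at least 0.58 in size, the limits used by the study. Levels are counts-per-million (CPM) after scaling by trimmed mean of M values (TMM). With library totals alone, the median log2FC of all genes moved from -0.003 to 0.21, so the fold changes given are those after TMM scaling. Each library came from 1 mouse, so p-values measure the spread between animals.

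Promoter sequences are shown first, because SREBP2 acts on its targets through sterol regulatory elements that usually lie near sites of the factor NF-Y. RefSeq promoters (250 bases before to 50 after the start, GRCm38.p6) matched 5 of the 7 genes, Sqle and Fdft1 being the others. Each was located in GRCm39 by its sequence and is printed 5′ to 3′ on the strand of the gene, from its first base to the base before the RefSeq start or the first start annotated by GENCODE, whichever comes first. Capitals mark matches on either strand to 3 motifs: TCACNCCAC for the sterol regulatory element, CCAAT for NF-Y and GGGCGG for a GC box.
Hmgcs1, chr13:120151637-120151886, plus strand: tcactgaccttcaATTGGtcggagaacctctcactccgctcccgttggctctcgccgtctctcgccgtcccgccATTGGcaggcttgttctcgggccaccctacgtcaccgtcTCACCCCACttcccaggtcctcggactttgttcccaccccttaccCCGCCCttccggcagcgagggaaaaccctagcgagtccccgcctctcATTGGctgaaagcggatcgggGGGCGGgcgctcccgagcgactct
Srebf2, chr15:82031220-82031381, plus strand: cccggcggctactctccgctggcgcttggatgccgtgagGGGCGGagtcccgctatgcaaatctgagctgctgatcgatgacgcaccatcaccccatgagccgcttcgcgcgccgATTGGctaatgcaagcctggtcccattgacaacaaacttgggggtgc
Lss, chr10:76367189-76367297, plus strand: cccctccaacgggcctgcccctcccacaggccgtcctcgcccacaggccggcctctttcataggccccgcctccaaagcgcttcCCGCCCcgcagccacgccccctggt
Abca1, chr4:53159901-53160145, minus strand: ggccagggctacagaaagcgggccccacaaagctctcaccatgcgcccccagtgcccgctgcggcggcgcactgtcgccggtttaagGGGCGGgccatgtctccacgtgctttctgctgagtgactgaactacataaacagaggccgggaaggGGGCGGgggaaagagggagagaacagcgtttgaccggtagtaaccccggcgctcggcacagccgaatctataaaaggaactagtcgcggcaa
Cyp46a1, chr12:108300325-108300492, plus strand: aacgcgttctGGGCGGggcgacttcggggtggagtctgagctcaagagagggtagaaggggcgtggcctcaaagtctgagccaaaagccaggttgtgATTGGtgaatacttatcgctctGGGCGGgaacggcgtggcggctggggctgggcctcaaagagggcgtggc

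Of these 5 promoters, that of Hmgcs1 alone held the sterol element letters, with their first base at -137 from the RefSeq start, in a stretch that also held NF-Y letters at -237, -176 and -45 and, beyond the printed bases, at 11 after the start, and no matches overlapped. Srebf2 had NF-Y letters at -135 and Cyp46a1 at -153, those of Lss lay at -62, beyond the printed stretch, and Abca1 had none. The sterol element letters occurred in 1.24% of 32851 promoters of the same length, NF-Y letters in 37.4% and the GC box in 35.7%. Among 19 promoters of 16 sterol synthesis genes, 1 held the sterol element letters, 15 the NF-Y letters and 16 the GC box. The liver X receptor element, searched as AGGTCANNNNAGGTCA on both strands, was in none of the 5 and in 0.0152% of all promoters. Exons of Gm60502, Gm56711 and Gm66108 reach into the printed stretches of Hmgcs1, Srebf2 and Lss. These matches describe letters and were not tested as binding sites. Only exact copies of the searched letters were counted. A promoter without a match, such as that of Abca1 or Srebf2, may therefore still hold a liver X receptor or sterol element in another form.

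Of the 7 genes, 4 were called higher at 24m and 0 lower, against 25.3% and 18.3% of all genes. They were Abca1, Hmgcs1, Lss and Srebf2, and in each of them all 24m libraries lay above all 6m libraries. Of all 16730 genes, 4750 had all 24m libraries above, and counting both directions the ages did not overlap in 55.2%. Sqle, Fdft1 and Cyp46a1 were not called, and their libraries overlapped between ages. The median log2FC of the 7 was 0.74. Counts behind these values ran from 75, for Abca1 in a 6m library, to 35264.

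Hmgcs1 (ENSMUSG00000093930, chr13:120151915-120170470, GRCm39) encodes cytosolic HMG-CoA synthase, an early step toward mevalonate. Its level was 22.01, 32.23, 26.62 and 16.7 CPM in 6m replicates 1 to 4 and 37.12, 64.83, 63.33 and 89.42 CPM in 24m replicates 1 to 4. The lowest 24m library, replicate 1, was still above the highest of 6m, and replicate 4 of 24m was highest. Mean levels were 24.4 ± 6.61 and 63.7 ± 21.4 CPM (SD, n = 4), a log2FC of 1.38 ± 0.27 (SE, edgeR adjusted p = 0.00167). Without 24m replicate 1 the log2FC was 1.58. Gm48342 and Nim1k overlap the gene on the other strand.

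Sqle (ENSMUSG00000022351, chr15:59186869-59203043) encodes squalene epoxidase, the first oxygen-requiring step of sterol synthesis and a control point of the pathway. Its level was 62.8, 62.9, 54.7 and 64.6 CPM in 6m replicates 1 to 4 and 50.1, 54.0, 57.6 and 61.4 CPM in 24m replicates 1 to 4. The ages overlapped because 6m replicate 3 lay below 2 libraries of 24m. The log2FC was -0.13 ± 0.09 (edgeR adjusted p = 0.221), and -0.08 without 24m replicate 1. After a trend of fold change over transcript length was removed from each library, the log2FC of Sqle was -0.47 (adjusted p = 0.00122), still under the fold-change limit. Over the 20 alternatives its adjusted p ran from 0.00122 to 0.916. Washc5 overlaps Sqle on the other strand.

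Fdft1 (ENSMUSG00000021273, chr14:63382189-63417027) encodes squalene synthase, which commits farnesyl groups to sterols. Its level was 169, 177, 150 and 184 CPM in 6m replicates 1 to 4 and 192, 157, 163 and 154 CPM in 24m replicates 1 to 4. The highest value was 24m replicate 1 and the lowest 6m replicate 3, so the ages overlapped widely. The log2FC was -0.03 ± 0.10 (edgeR adjusted p = 0.824), or -0.09 without 24m replicate 1, and it changed sign with the scaling. Adjusted p over its alternatives was 0.015 to 1.00, the low end being a positive log2FC of 0.20 after quantile normalization and DESeq2. Ctsb and Gm62779 overlap Fdft1 on the other strand.

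Lss (ENSMUSG00000033105, chr10:76367298-76392976) encodes lanosterol synthase, which closes the sterol rings. Its level was 6.78, 7.21, 7.23 and 7.73 CPM in 6m replicates 1 to 4 and 10.96, 12.22, 13.23 and 16.36 CPM in 24m replicates 1 to 4. The 6m libraries lay close together, all 24m libraries were above them, and 24m replicate 4 was highest. The log2FC of Lss was 0.86 ± 0.13 (edgeR adjusted p = 0.000523) and 0.96 without 24m replicate 1. Removal of the length trend lowered it to 0.42 (adjusted p = 0.00541), under the fold-change limit. Over the alternatives its adjusted p lay between 1.95e-08 and 0.0109. Gm66108, Gm66127 and Gm15343 overlap Lss on the other strand.

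**Figure D1:**
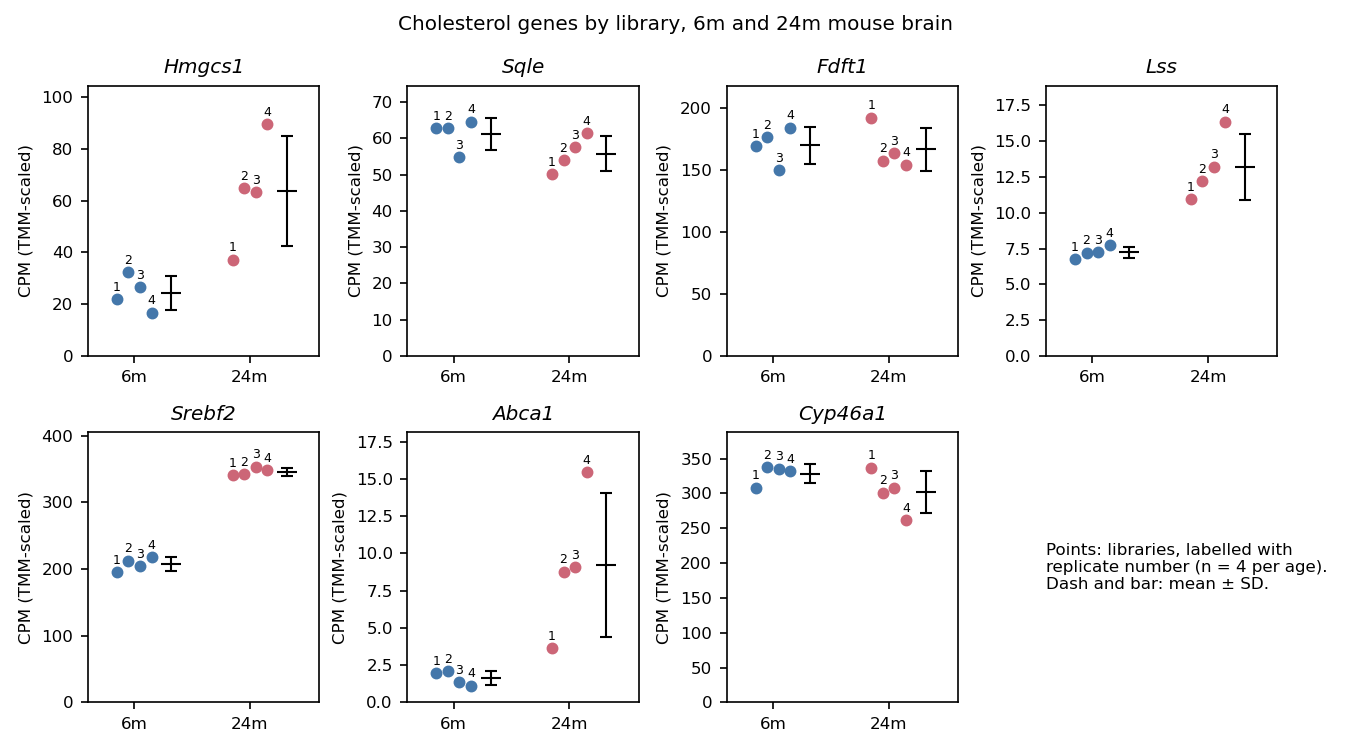
Level of each of the 7 genes in every library, in TMM-scaled CPM on a linear axis from 0, for 6m (blue) and 24m (red), with the replicate number at each point and the mean ± SD of 4 libraries beside them. All 24m points lie above all 6m points for Hmgcs1, Lss, Srebf2 and Abca1, and the ages overlap for Sqle, Fdft1 and Cyp46a1.

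Srebf2 (ENSMUSG00000022463, chr15:82031382-82093201), the gene of SREBP2 and the host of the microRNA Mir33, had the steadiest rise. Its level was 195, 213, 205 and 217 CPM in 6m replicates 1 to 4 and 340, 342, 353 and 348 CPM in 24m replicates 1 to 4. The 24m libraries lay within a narrow band far above those of 6m, with coefficients of variation of 1.70% at 24m and 4.75% at 6m. The log2FC of Srebf2 was 0.74 ± 0.07 (edgeR adjusted p = 5.63e-05) and 0.76 without 24m replicate 1. Removal of the length trend lowered it to 0.39 (adjusted p = 0.00343), under the fold-change limit, and the adjusted p over its alternatives ran from 8.91e-32 to 0.0163. Besides Mir33, Gm49502 overlaps Srebf2 on the same strand and Gm56711 and Shisa8 on the other.

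Abca1 (ENSMUSG00000015243, chr4:53030787-53159900) encodes the transporter that loads cholesterol onto apolipoproteins. Its level was 1.98, 2.11, 1.38 and 1.14 CPM in 6m replicates 1 to 4 and 3.62, 8.79, 9.07 and 15.5 CPM in 24m replicates 1 to 4. Replicate 1 of 24m was nearest to 6m and replicate 4 farthest from it, and the coefficient of variation was 28.4% at 6m and 52.5% at 24m. The log2FC of Abca1 was 2.48 ± 0.40 (edgeR adjusted p = 0.000648), which only 1.18% of tested genes exceeded. It was 2.76 without 24m replicate 1 and 2.11 without 24m replicate 4, the extremes over the libraries left out. No annotated gene overlaps Abca1.

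Cyp46a1 (ENSMUSG00000021259, chr12:108300493-108328512) encodes the cholesterol 24-hydroxylase. Its level was 308, 338, 335 and 332 CPM in 6m replicates 1 to 4 and 337, 301, 308 and 262 CPM in 24m replicates 1 to 4. Replicate 1 of 24m lay among the 6m libraries, and replicate 4 was lowest. The log2FC was -0.12 ± 0.09 (edgeR adjusted p = 0.269), -0.17 without 24m replicate 1 and -0.058 without 24m replicate 4. No alternative brought its adjusted p, 0.0618 to 0.671, to 0.05, and its sign turned with library totals, with quantile normalization and with a GC trend removed. No annotated gene overlaps Cyp46a1.

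Among the 24m libraries, replicate 1 was lowest and replicate 4 highest for Hmgcs1, Sqle, Lss and Abca1, and the reverse held for Cyp46a1 and Fdft1. On the first principal component these libraries were also the extremes of 24m, at 9.09 for replicate 1 and 37.6 for replicate 4. For Srebf2 replicate 1 was lowest too, but replicate 3 was highest. The part of any difference between libraries in these values was not tested.

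Levels per kilobase of exonic length ordered the genes differently at the 2 ages. At 6m the order was Cyp46a1 at 79.4 ± 3.28 CPM per kilobase, Fdft1 at 35.6 ± 3.08, Srebf2 at 22.2 ± 1.06, Sqle at 6.89 ± 0.498, Hmgcs1 at 4.63 ± 1.26, Lss at 0.637 ± 0.0342 and Abca1 at 0.134 ± 0.0382 (SD, n = 4). At 24m Cyp46a1 stood at 73.0 ± 7.46, Srebf2 at 37.0 ± 0.629, Fdft1 at 34.9 ± 3.64, Hmgcs1 at 12.1 ± 4.06, Sqle at 6.28 ± 0.545, Lss at 1.16 ± 0.203 and Abca1 at 0.752 ± 0.395. Hmgcs1 was below Sqle in every 6m library, at 3.17 to 6.12 against 6.16 to 7.27, and above it in every 24m library, at 7.05 to 17.0 against 5.64 to 6.91. Srebf2 and Fdft1 changed places too, but at 24m their libraries overlapped, as did those of Lss and Abca1. Exonic length is the union of all annotated exons, 4.14 kb for Cyp46a1 to 12.3 kb for Abca1, so a gene with long minor transcripts is understated on this scale.

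Ratios between genes within a library do not depend on scaling between libraries, so each gene was also set against Cyp46a1. They do keep any trend over transcript length. Cyp46a1 has 4.14 kb of exons, against 9.34 kb for Srebf2, 11.4 kb for Lss and 12.3 kb for Abca1. The log2 ratio of counts rose between the ages by 2.48 for Abca1, 1.48 for Hmgcs1, 0.98 for Lss and 0.86 for Srebf2. In each of these 4 ratios all 24m libraries were above all 6m libraries. The two-sided exact permutation p was 0.0286 for each, the lowest that 70 assignments of 4 libraries a side can give. Adjusted over 6 ratios it was 0.0429. The same 4 genes had already separated the ages in CPM in these libraries, while Cyp46a1 was not called. The p-values of these ratios therefore largely restate that separation and are not further evidence of it. In CPM the ages did not overlap in 55.2% of all genes. The share of all genes whose ratio to Cyp46a1 separates the ages was not tested. Srebf2 went from -0.66 ± 0.04 to 0.20 ± 0.16 (SD), that is from fewer counts than Cyp46a1 to more. The ratio of Sqle to Cyp46a1 was -2.42 ± 0.14 at 6m and -2.44 ± 0.27 at 24m (exact permutation p = 1.00), and that of Fdft1 was -0.95 ± 0.14 and -0.85 ± 0.08 (exact permutation p = 0.343, adjusted 0.412).

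**Figure D2:**
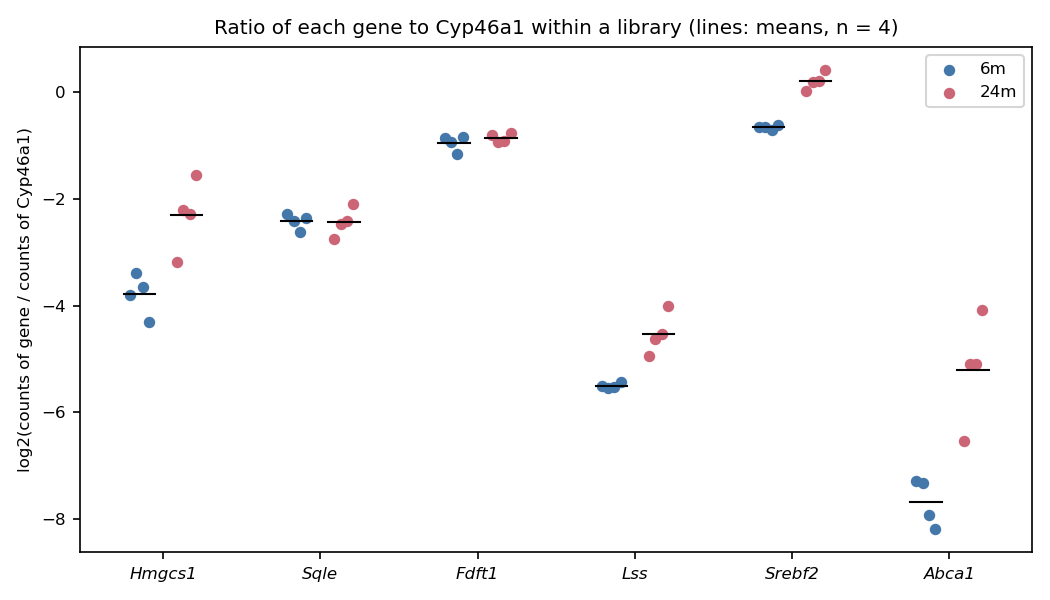
Log2 ratio of the counts of each gene to the counts of Cyp46a1 in the same library, for 6m (blue) and 24m (red), with a line at the mean of 4 libraries. The 24m points stand above the 6m points for Hmgcs1, Lss, Srebf2 and Abca1, and the ages overlap for Sqle and Fdft1.

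The other enzymes of the pathway were read from a list of 21 sterol synthesis genes, which includes Hmgcs1, Fdft1, Sqle and Lss. At 24m 7 of them (33.3%) were called higher and 2 (9.52%) lower, against 25.3% and 18.3% of all genes, and the median log2FC was 0.09. The number called lower was 5 without 24m replicate 1 and 1 without 24m replicate 3 or 4 or 6m replicate 1 or 4, and the number called higher was 5 with a length or GC trend removed or after quantile normalization. Those called higher included Hmgcs1, Lss, Lbr, Hsd17b7 and Sc5d, and those called lower were Pmvk and Ebp. The adjusted p but too small a fold change was found for a further 5, of which Mvk, Mvd, Fdps and Tm7sf2 were lower at 24m and Cyp51 was higher. The remaining 7, with Sqle and Fdft1 among them, passed neither. The summed level of the 21 genes overlapped between ages, at 1027 to 1178 CPM in 6m and 1044 to 1172 CPM in 24m.

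Pmvk, the phosphomevalonate kinase, fell from 169 ± 18.1 to 73.9 ± 15.3 CPM (log2FC -1.19 ± 0.15, edgeR adjusted p = 0.000163). Idi1, the isopentenyl diphosphate isomerase, was at 8.31 ± 1.77 and 9.91 ± 2.03 CPM (log2FC 0.25 ± 0.19, adjusted p = 0.274). The log2FC of Idi1 was 0.134 without 6m replicate 4, 0.162 without 24m replicate 4, 0.384 without 24m replicate 1, 0.387 without 6m replicate 2 and -0.038 with the GC trend removed. Pmvk and Idi1 act before Fdft1 in the pathway.

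After lanosterol, Hsd17b7, a sterol ketone reductase, rose from 1.05 ± 0.203 to 4.00 ± 1.26 CPM (log2FC 1.92 ± 0.25, edgeR adjusted p = 0.00023). Dhcr7, which acts in the last steps, was at 40.4 ± 2.94 and 43.0 ± 3.12 CPM (log2FC 0.09 ± 0.09, adjusted p = 0.408), and its log2FC was 0.042 without 6m replicate 3, 0.052 without 24m replicate 1 and -0.20 with the length trend removed. Cyp51, the lanosterol demethylase, had a log2FC of 0.34 ± 0.10 (adjusted p = 0.0129), which was 0.076 with the GC trend removed (adjusted p = 0.426), 0.231 with the length trend removed (adjusted p = 0.0516) and 0.564 with library totals. Ebp, a sterol isomerase, fell by 0.62 ± 0.16 on the log2 scale (adjusted p = 0.00677). The call of Ebp was lost in 7 of the 20 alternatives, with log2FC of -0.58 to -0.41, among them those that left out 24m replicate 3 or 4 or 6m replicate 1 or 4. Ebp and the other gene called lower, Pmvk, have exonic lengths of 4085 and 3831 bases.

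**Figure D3:**
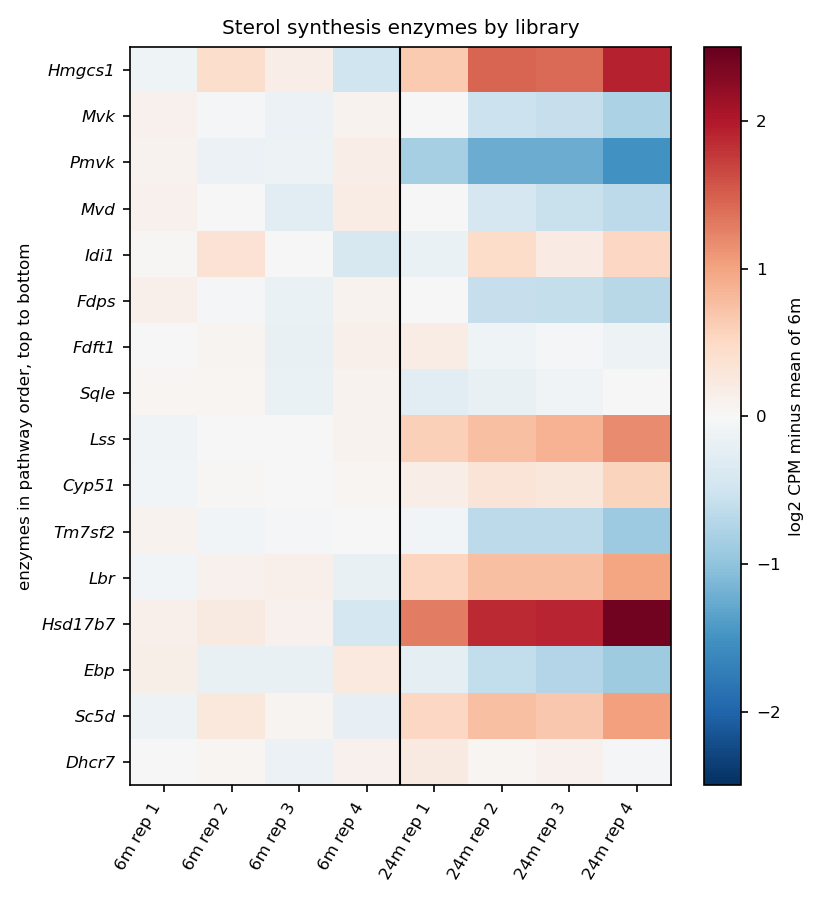
Log2 CPM of the sterol synthesis enzymes named in the text, in each library, minus the mean of the gene over the 6m libraries, with enzymes in pathway order from top to bottom and red for higher. In 24m Hmgcs1, Lss and Hsd17b7 are red in every library, Pmvk is blue in every library, and Fdft1 and Sqle stay near the 6m level.

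Of 7 genes that sense sterols, 3 were called higher at 24m (42.9%, against 25.3% of all genes), namely Srebf2, Insig1 and Mbtps2, and 0 lower (18.3% of all genes). With the length trend removed 2 were called higher and 1 lower. Insig1, an SREBP target whose product holds Scap in the endoplasmic reticulum, rose from 16.4 ± 2.46 to 32.5 ± 6.59 CPM (log2FC 0.99 ± 0.16, edgeR adjusted p = 0.000682). Mbtps2, the protease that makes the second cut of SREBP, rose from 3.06 ± 0.526 to 6.93 ± 2.25 CPM (log2FC 1.18 ± 0.25, adjusted p = 0.00241), and its log2FC was 0.70 with the length trend removed. The median log2FC of these 7 genes was 0.34.

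Genes of uptake and intracellular transport had the largest share called higher of the 5 lists, 8 of 13 (61.5%, against 25.3% of all genes), with 0 lower (18.3% of all genes), and their median log2FC was 1.04. Osbp and Stard4, which carry sterols between membranes, had log2FC of 1.38 ± 0.14 and 1.29 ± 0.19 (edgeR adjusted p = 6.94e-05 and 0.00041).

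Around Abca1, 4 of 13 genes of efflux and lipoproteins were called higher (30.8%, against 25.3% of all genes) and 1 lower (7.69%, against 18.3%), and the median log2FC was -0.22. The number called lower was 5 without 24m replicate 1 (where 3661 of all 16730 genes were lower, against 3058), 3 without 6m replicate 2 and 2 without 24m replicate 2 or 6m replicate 3 or with DESeq2 or limma-voom. Abcg1, another exporter under liver X receptors, rose from 20.9 ± 2.20 to 51.6 ± 11.4 CPM (log2FC 1.30 ± 0.17, edgeR adjusted p = 0.000204). Rxra, a partner of those receptors, rose from 9.09 ± 0.468 to 22.6 ± 1.14 CPM (log2FC 1.32 ± 0.09, adjusted p = 1.94e-05). Apoc1, an apolipoprotein, fell from 5.02 ± 0.509 to 2.39 ± 0.798 CPM (log2FC -1.06 ± 0.22, adjusted p = 0.00241), or -0.65 with the length trend removed. Apoe, the main lipoprotein of the brain and a recipient of exported cholesterol, was at 7060 ± 462 and 4850 ± 1040 CPM. Its log2FC of -0.54 ± 0.15 (edgeR adjusted p = 0.0107) was too small for a call. Without 24m replicate 1 Apoe was called lower, at -0.68 (adjusted p = 0.000103), while over the other alternatives its adjusted p reached 0.661 and its log2FC 0.03.

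Around Cyp46a1, 9 genes of oxysterol turnover and esterification held 2 called higher (22.2%, against 25.3% of all genes) and 1 lower (11.1%, against 18.3%), and their median log2FC was 0.02. Nceh1, a cholesteryl ester hydrolase, rose from 7.06 ± 1.10 to 26.6 ± 8.97 CPM (log2FC 1.91 ± 0.24, edgeR adjusted p = 0.000197). Soat1, which forms those esters, rose from 3.86 ± 0.403 to 7.73 ± 1.86 CPM (log2FC 1.00 ± 0.18, adjusted p = 0.00108), but with the length trend removed its log2FC was 0.57, under the limit. Cyp27a1, the mitochondrial sterol 27-hydroxylase, fell from 25.7 ± 2.79 to 16.7 ± 3.02 CPM (log2FC -0.62 ± 0.14, adjusted p = 0.00356). The call of Cyp27a1 was lost without 24m replicate 4 (-0.54) or 6m replicate 1 (-0.58), with library totals (-0.41) and with a GC (-0.57) or length (-0.43) trend removed.

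Over the 63 genes of the 5 lists together, 24 were called higher and 4 lower (38.1% and 6.35%, against 25.3% and 18.3% of all genes). Without the 7 genes described here the counts were 20 and 4 of 56, or 35.7% and 7.14%. The lists, like the 7 genes, were chosen with earlier results of these data known. The number called lower depended on single libraries. It was 11 without 24m replicate 1, and 2 without 24m replicate 4 or 6m replicate 1. Among the pathway genes named with values here, leaving out 24m replicate 1 turned no direction and changed the call of Apoe only.

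**Figure D4:**
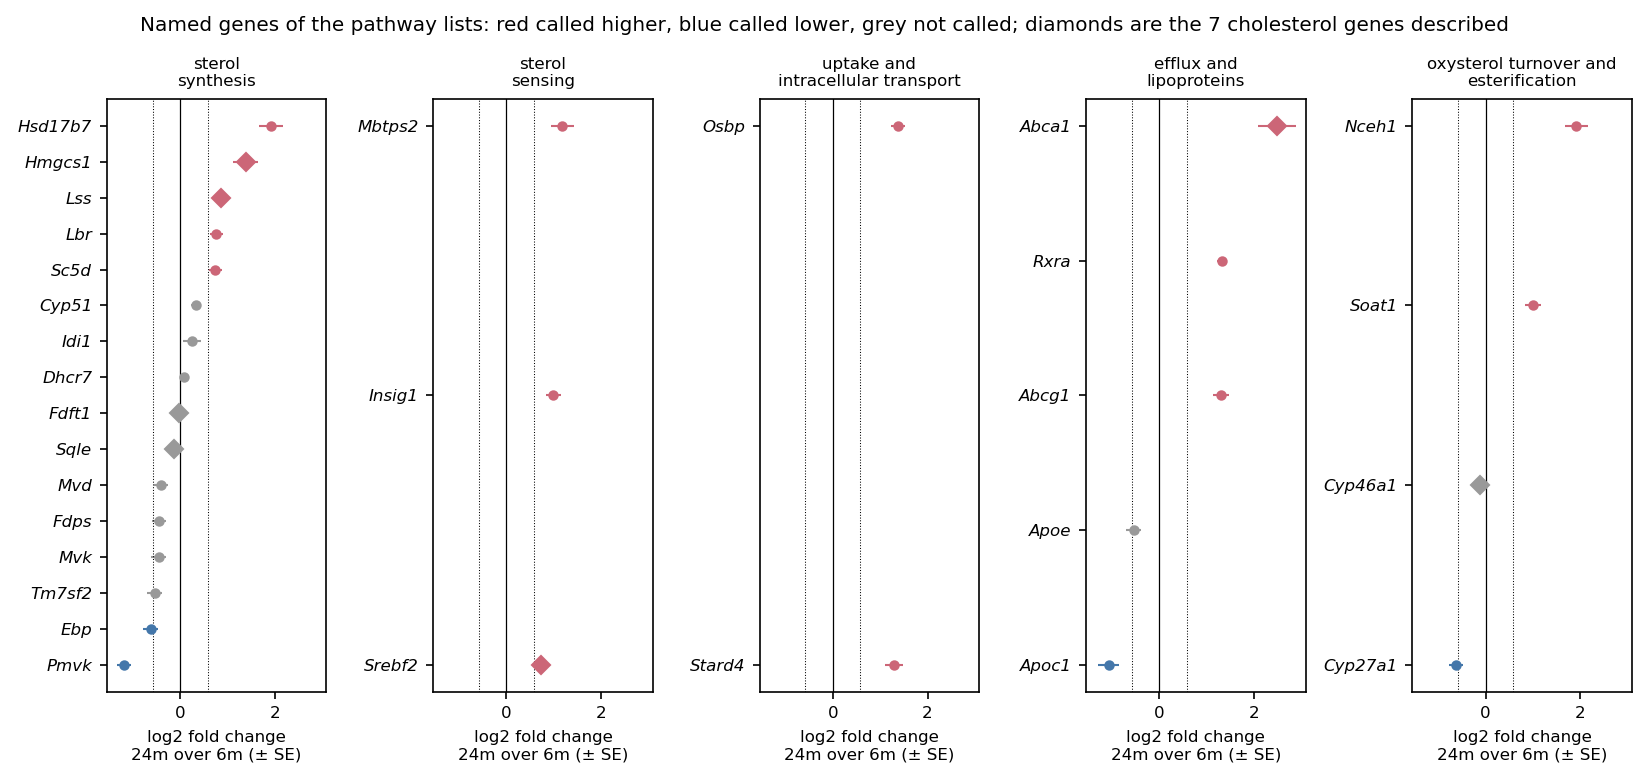
Log2 fold change of 24m over 6m with its SE for the genes of the 5 pathway lists that the text names, in red where called higher, in blue where called lower and in grey where not called, with dotted lines at the fold-change limit of 0.58 on either side. Diamonds mark the 7 genes described here, of which Abca1 is at the top of its list and Sqle, Fdft1 and Cyp46a1 lie near 0.

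Transcript length moved with these results. Across all genes, the median log2FC went from -0.67 in the shortest of 10 classes of exonic length to 0.52 in the longest, and the share called higher from 5.88% to 46.6%. Abca1 and Lss fell in class 9, where the median was 0.41 and 41.1% were called higher. Srebf2 and Sqle fell in class 8 (0.33, 36.9%), Hmgcs1 in class 5 (0.02, 23.6%) and Fdft1 and Cyp46a1 in class 4 (-0.06, 21.2%). With the length trend removed Hmgcs1 and Abca1 remained called, with log2FC of 1.34 and 1.97, and Lss and Srebf2 did not.

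Markers of cell types were read for the same libraries, since glia and neurons differ in these genes, and each count can be read against the 25.3% of all genes called higher and the 18.3% called lower. Of 10 astrocyte markers 6 were called higher and 1 lower, and they had a summed level of 2961 to 3895 CPM in 6m and 2930 to 3900 CPM in 24m. Of 10 oligodendrocyte markers 1 was called higher and 0 lower (3481 to 4344 and 3743 to 4351 CPM). Of 8 neuron markers 2 were called higher and 1 lower (3961 to 4264 and 4238 to 4623 CPM), and of 8 microglia markers 3 were higher and 0 lower (321.7 to 329.3 and 362.2 to 435.5 CPM). Oligodendrocyte precursor markers had 1 called higher and 1 lower of 5 (170.9 to 215.2 and 200.6 to 241.4 CPM). Endothelial markers had 1 higher and 2 lower of 7 (75.2 to 110 and 44.7 to 68.5 CPM), choroid plexus markers 2 higher and 0 lower of 5 (1778 to 3203 and 822 to 2255 CPM), and blood markers 5 lower of 5 (5426 to 7605 and 1242 to 4156 CPM). No marker was at 0 in any library. The part of cell composition in the changes of the 7 genes was not tested.

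Genes of most like pattern were sought among 10605 others with a mean of at least 5 CPM over all libraries, by the mean absolute difference of centred log2 CPM over the 8 libraries. For Srebf2 they were Nploc4 (0.03) and Tnfaip1 (0.03), for Hmgcs1 Cdh11 (0.05) and Klhl9 (0.05), and for Lss Dpp6 (0.05) and Aplp2 (0.06). For Abca1 they were Tet3 and Abl2 (0.14 each), which reached that mean through 24m alone, being at 1.40 and 2.23 CPM in 6m. For the genes not called they were Prim2 (0.05) and Cct8 (0.05) beside Sqle, Asns and Rab8a (0.04 each, 0.035 before rounding) beside Fdft1, and Slc5a5 and Rnf181 (0.03 each) beside Cyp46a1. None of these 14 genes belongs to the 5 pathway lists.

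**Figure D5:**
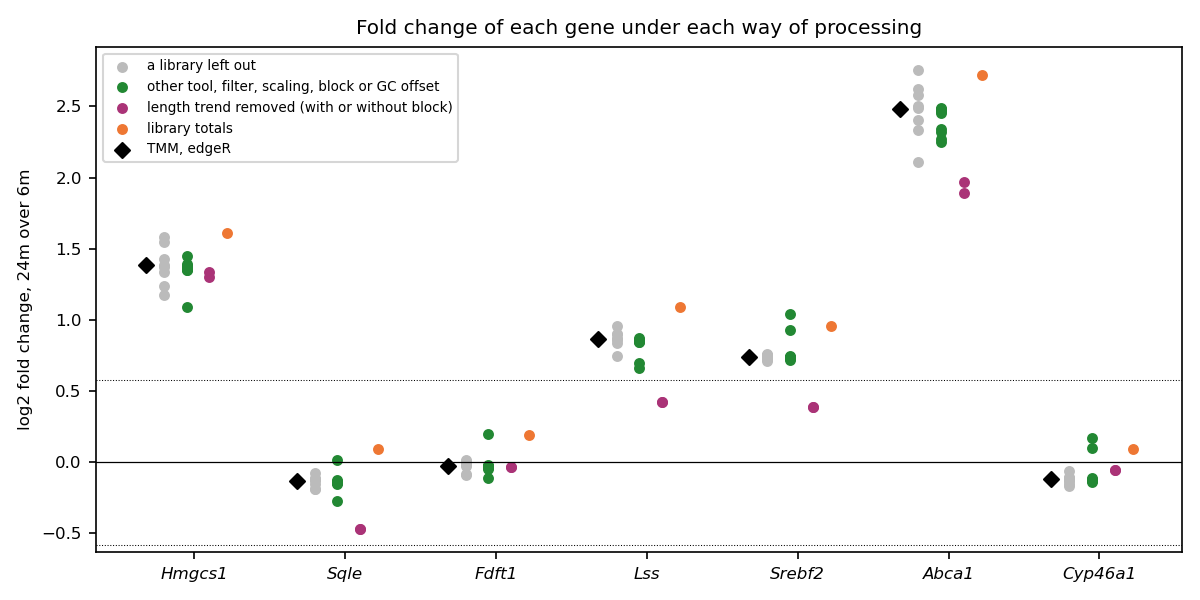
Log2 fold change of 24m over 6m for each of the 7 genes under TMM scaling with edgeR (black diamond) and under the 20 alternatives, coloured by kind, with dotted lines at the fold-change limit of 0.58 on either side. Hmgcs1 and Abca1 stay above the limit under every alternative shown, Lss and Srebf2 drop under it where the length trend was removed, and Sqle, Fdft1 and Cyp46a1 stay between the limits.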

How the data were processed

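Poly(A) RNA libraries (directional kit, paired-end reads) of 8 male mouse brains were analysed. The authors trimmed reads with Trim Galore 0.4.11, aligned them to GRCm39 with HISAT2 2.1.0 and counted reads per Ensembl gene by featureCounts. The deposited values are whole-number counts per gene and library, not normalized and not pooled. Strand and multimapping settings are not given in the sources used here, so reads of overlapping genes may be shared. Of 22430 genes, 22281 matched GENCODE symbols of the same build.

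The ages were compared in edgeR 4.0.16 (R 4.3.3) with TMM factors and no covariate, over genes whose count exceeded 5 in 4 or more libraries. SE is the log2FC divided by the root of its F statistic. Depth was 63460940 to 103462414 counts per library. Chi-square per degree of freedom was 8.17 to 424 over 12 replicate pairs, so each library counted as 1 replicate. Within-library ratios were compared by exact permutation over 70 assignments. The fit was tested on simulated data. The members and lists were chosen with earlier results of these data known. Named genes were the 7 members, 10 genes fixed by name, in each pathway list up to 2 of the highest and 2 of the lowest called genes with at least 1 CPM and no overlap between ages, and the 2 of most like pattern to each member, names of predicted genes left out. A few of these genes are not reported here.

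Alternatives were other scaling, DESeq2 1.42.0, limma-voom (limma 3.58.1), other filters, each library left out, the replicate number as a block, and removal of length or GC trends with a smoothed offset per library.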

Additional observations from a re-analysis of the deposited data

Results flagged for a closer look

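Within each age, the levels of the named genes and the ratios to Cyp46a1 were searched for a library far from the other 3, over 94 sets of 4 values. Chance marks about 1 in 20 such sets, and 1 was marked here. Cct8, a chaperonin subunit named for its likeness to Sqle, was at 160 CPM in 24m replicate 4 against 131 to 136 CPM in the other 24m libraries, a gap of 0.833 of the whole range, which is past the 95% critical value of Dixon for 4 values.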

How the results depend on the processing

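Over 20 alternatives, Hmgcs1 and Abca1 were called higher in 20, Lss and Srebf2 in 18, and Sqle, Fdft1 and Cyp46a1 in 0. With the length trend removed, alone or with the replicate block, Lss had a log2FC of 0.42 or 0.43 and Srebf2 of 0.39 in both, and 2 members were called higher rather than 4. The trend is built to take out changes shared by genes of like length. With library totals the log2FC was 0.09 for Sqle, 0.188 for Fdft1, 0.093 for Cyp46a1, 0.059 for Prim2, 0.016 for Cct8, 0.179 for Rab8a, 0.062 for Slc5a5 and 0.063 for Rnf181, all of reversed sign, 2 pathway genes were called lower, and over all genes 5449 were called higher and 1746 lower (75.7% higher, against 58.1%). With DESeq2 on quantile-normalized counts the sign reversed for Sqle (0.014), Fdft1 (0.20), Cyp46a1 (0.168), Apoe (0.029), Cct8 (0.022) and Rab8a (0.029). With the GC trend removed it reversed for Cyp46a1 (0.10), Idi1 (-0.038), Asns (-0.198) and Slc5a5 (0.035). With the length trend removed it reversed, without and with the block, for Dhcr7 (-0.20, -0.21), Asns (-0.41, -0.42), Slc5a5 (0.12, 0.12) and Rnf181 (0.13, 0.13). Asns was at -0.008 with upper-quartile factors. The causes were not tested.

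With 1 library left out, the log2FC ranged from -0.091 to 0.014 for Fdft1, from -0.033 to 0.051 for Asns and from -0.097 to 0.01 for Rab8a, and the count of pathway genes called lower from 2 to 11. The replicate block gave 4112 higher and 3130 lower calls over all genes and changed no call among the 7 members. Deviations of same-numbered libraries correlated at 0.27, 0.14, 0.08 and -0.35, so the numbers were not taken as pairs. The lowest count, the 75 of Abca1, was in a 6m library, but the coefficient of variation of Abca1 was larger at 24m (52.5%) than at 6m (28.4%).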
